A study of Homo sapiens with 12 samples.

Results

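Rab GTPases are small GTP-binding proteins that give cell membranes their identity and direct vesicle traffic between them. The genes described here are those whose symbol on the array platform is RAB followed by a number and at most 1 letter, and the brightest probe stood for each gene. By that rule 57 probes named 50 Rab genes, of 13881 genes measured with 1 symbol. RefSeq lists 63 protein-coding symbols of the same form, of which 48 were measured. The other two measured symbols were RAB1C, a pseudogene in RefSeq, and RAB39, an older platform symbol that RefSeq gives as a synonym of both RAB39A and RAB34. The 15 symbols without a probe under the rule, among them RAB5A, RAB14, RAB1B, RAB4A, RAB6A, RAB27A and RAB3A, are not analysed here.

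The samples carry the label HepG2, the name of a line from a human hepatocellular carcinoma, and their total RNA was taken from cells grown in medium with fetal bovine serum, to compare the transcript levels after exposure to 3 agents used to protect the liver. Cells were given 25 µM glycyrrhizin, a triterpenoid saponin of liquorice root, 25 µM silymarin, a flavonolignan mixture from milk thistle, or 25 µM ursodeoxycholic acid, a hydrophilic bile acid, and the control cells were mock-treated. Each of the 4 groups had 3 arrays, read in 1 colour with Cy5, so there were 12 arrays. The treatment time is not given in the sources used here. Whether the 3 arrays of a group stand for separate cultures is not stated, so the p-values reflect array-to-array spread that may be technical in origin.

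A Rab protein works as a switch. Exchange factors load it with GTP on a particular membrane, the GTP-bound form recruits effectors that tether, move or fuse vesicles, and GTPase-activating proteins return it to the GDP-bound form, which a dissociation inhibitor draws off the membrane. In hepatocytes such traffic carries lipoproteins and plasma proteins outward, takes up receptors, and delivers bile transporters to the canalicular surface. RAB5 proteins and RAB21 act at the early endosome, RAB7A at the late endosome, RAB11 proteins in recycling and RAB1A between the endoplasmic reticulum and the Golgi.

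No Rab gene passed the threshold in any comparison of 2 groups or in the test over the 4 groups. In the test over the 4 groups the Rab genes with the smallest p were RAB5B and RAB21, both genes of the early endosome, which lay lower on the glycyrrhizin and ursodeoxycholic acid arrays than on the silymarin and control arrays. RAB5C, the other RAB5 gene measured, did not share that order. Because these are bulk samples, less RNA per cell and fewer cells that contain the RNA cannot be told apart.

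The promoter sequences of these 3 genes are given because RAB5B and RAB21 ran together over the 12 arrays and RAB5C did not. Each is the 250 bases before the most upstream RefSeq start listed for the gene on GRCh38.p14, written 5′ to 3′ on the gene's own strand. They lie at chr12:55973699-55973948 on the plus strand for RAB5B, at chr12:71754613-71754862 on the plus strand for RAB21, and at chr17:42154990-42155239 on the minus strand for RAB5C. Capitals mark matches on either strand to 5 motifs: the E-box, spelled CACGTG, the AP-1 motif, spelled TGANTCA, the GC box, spelled GGGCGG, the box spelled CCAAT, and the core of the aryl hydrocarbon receptor motif, spelled GCGTG.
RAB5B: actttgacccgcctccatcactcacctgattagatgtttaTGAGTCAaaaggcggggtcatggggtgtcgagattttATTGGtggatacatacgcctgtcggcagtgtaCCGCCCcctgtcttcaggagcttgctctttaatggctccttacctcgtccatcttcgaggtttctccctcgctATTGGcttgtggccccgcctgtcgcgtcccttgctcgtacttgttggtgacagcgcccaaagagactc
RAB21: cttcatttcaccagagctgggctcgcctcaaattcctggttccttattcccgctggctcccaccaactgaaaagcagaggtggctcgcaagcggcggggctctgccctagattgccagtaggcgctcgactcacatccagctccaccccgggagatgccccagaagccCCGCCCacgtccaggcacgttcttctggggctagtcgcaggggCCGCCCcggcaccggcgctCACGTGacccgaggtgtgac
RAB5C: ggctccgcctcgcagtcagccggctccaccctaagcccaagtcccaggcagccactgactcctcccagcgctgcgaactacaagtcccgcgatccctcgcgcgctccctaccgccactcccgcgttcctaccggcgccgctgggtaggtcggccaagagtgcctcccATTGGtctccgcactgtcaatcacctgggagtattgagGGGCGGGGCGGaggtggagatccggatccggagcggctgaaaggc

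All 3 windows held a GC box, and those in the RAB5C window overlap each other. A GC box stood in 30 of the 36 Rab windows in the RefSeq table and in 55.8% of 15842 windows of protein-coding genes. RAB5B alone of the 3 held the AP-1 motif, which stood in 2 of the 36 Rab windows and in 5.0% of all windows. RAB21 alone of the 3 held the E-box, which stood in 3 Rab windows and in 7.8% of all. RAB5B and RAB5C, but not RAB21, held a CCAAT box, found in 12 Rab windows and in 34.5% of all. The aryl hydrocarbon receptor core stood in none of the 3 windows, in 12 Rab windows and in 39.1% of all. A match of letters describes the window and does not show that a factor binds there.

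The deposited intensities had been brought to a common distribution, with array medians between 85.8 and 86.6 and values between 1 and 65221. All levels below are log2 of these intensities, and differences between group means are on the same scale, given with the fit's standard error (SE). Without detection calls a dim probe and background look alike. Precision is limited by having 12 arrays. The median Rab gene lay at 7.07, against 6.70 for the median of all genes, and 29 Rab genes lay above that median and 21 under it. Because probes differ in how well they hybridise, the levels of different genes give no order of expression.

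Markers were read as a check of the label. Of 17 hepatocyte markers 12 were measured, between 3.55 and 8.89 with a median of 6.75, close to the median of all genes. Alpha-fetoprotein (AFP) lay at 6.89 and APOB, the brightest, at 8.89. Of 10 markers of neuroblasts and sympathetic neurons 8 were measured, between 5.66 and 12.49 with a median of 8.86. The brightest were tyrosine hydroxylase (TH) at 12.49, STMN2 at 11.08 and ISL1 at 10.15, and the dimmest was CHGB at 5.66. Of 9 fibroblast and mesenchymal markers 7 were measured, between 6.03 and 15.53 with a median of 7.02, where vimentin (VIM) was the brightest. Of 5 epithelial markers 3 were measured, with KRT19 at 5.23, CDH1, encoding E-cadherin, at 5.5 and EPCAM at 7.59. Albumin, HNF4A and the keratins KRT8 and KRT18 are not analysed here. Above the median gene lay 7 of the 12 hepatocyte, 7 of the 8 neuronal, 5 of the 7 mesenchymal and 1 of the 3 epithelial markers. These levels come from different probes and do not rank the cell types, and the cells are known here by their label alone.

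RAB5B, a RAB5 paralog that drives homotypic fusion of early endosomes, read 13.44, 13.77 and 13.11 on the glycyrrhizin arrays. It read 14.22, 14.44 and 14.31 on the silymarin arrays and 13.75, 13.46 and 13.42 on the ursodeoxycholic acid arrays, against 14.36, 14.27 and 14.41 on the control arrays. All 6 glycyrrhizin and ursodeoxycholic acid arrays lay below all 6 silymarin and control arrays, with a gap of 0.45 between them. The mean was 13.44 ± 0.33 with glycyrrhizin, 14.32 ± 0.11 with silymarin, 13.54 ± 0.18 with ursodeoxycholic acid and 14.35 ± 0.07 in control (SD, n = 3 arrays each).

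RAB21, which carries integrins through the early endosome, read 12.16, 12.40 and 12.14 with glycyrrhizin. It read 12.88, 13.00 and 12.94 with silymarin and 12.22, 12.10 and 11.96 with ursodeoxycholic acid, against 12.67, 12.59 and 12.83 in control. The arrays fell into the same 6 and 6 as for RAB5B, with a gap of 0.19. Among all 13881 genes, 89 (0.641%) had all glycyrrhizin and ursodeoxycholic acid arrays below all others, and 43 (0.31%) had them above. The split was noticed in these values and is given as a description.

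RAB5C, a paralog of RAB5B with the same endosomal role, read 8.72, 8.82 and 8.59 with glycyrrhizin. It read 8.63, 8.61 and 8.62 with silymarin and 8.57, 8.07 and 7.94 with ursodeoxycholic acid, against 8.12, 8.42 and 8.34 in control. Its glycyrrhizin and silymarin arrays all lay above the control arrays, while the ursodeoxycholic acid arrays overlapped them. RAB5B had its lowest mean with glycyrrhizin, the group in which RAB5C had its highest mean, 8.71 ± 0.12 (SD, n = 3 arrays). With ursodeoxycholic acid RAB5B had its next lowest mean, 13.54, and RAB5C its lowest, 8.19.

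**Figure D1:**
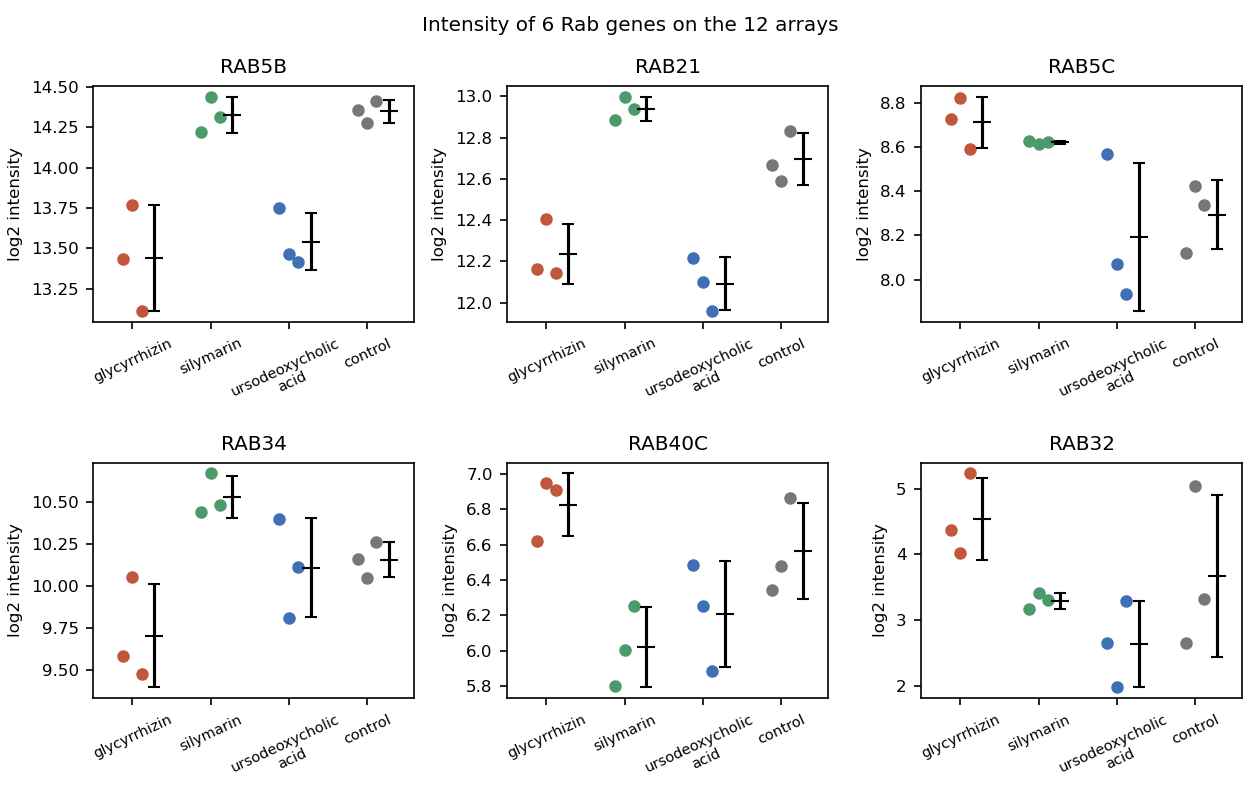
Log2 intensity of 6 Rab genes on each of the 12 arrays, by group (glycyrrhizin, silymarin, ursodeoxycholic acid, control); points are arrays, and the bar beside them is the mean with its SD over 3 arrays. RAB5B lies between 13.11 and 13.77 on the 6 glycyrrhizin and ursodeoxycholic acid arrays and at 14.22 or above on the other 6, and RAB21 splits at the same place.

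The first comparison asked which Rab transcripts glycyrrhizin changes. In glycyrrhizin minus control, 0 of 50 Rab genes passed an adjusted p of 0.05, beside 0.0072% of all genes, in limma with Benjamini-Hochberg adjustment over all 13881 genes. At an unadjusted p under 0.05 there were 4 Rab genes (8%), beside 5.71% of all genes. The groups did not overlap for 7 Rab genes, or 14%, beside 12.7% of all genes. The median Rab difference was 0.15, against 0.02 over all genes, and 29 Rab genes were above 0 and 21 below, beside 52.5% of all genes above 0.

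RAB5B differed by -0.91 (SE 0.20, 95% interval -1.36 to -0.46), a 1.88-fold lower level, with an adjusted p of 0.419 in limma. With a variance trend over brightness and robust moderation, set together, RAB5B passed with an adjusted p of 0.0157 in limma, beside 0.122% of all genes. RAB21 differed by -0.46 (SE 0.17), with an adjusted p of 0.736 in limma. RAB5C lay 0.42 above control (95% interval -0.02 to 0.86), and its interval includes 0.

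RAB3C, a RAB3 paralog of regulated exocytosis, read 3.67, 4.46 and 5.07 with glycyrrhizin, against 5.21, 5.22 and 5.98 in control. The difference was -1.07 (SE 0.40, limma adjusted p 0.736) at a dim probe. RAB39B, a vesicle-traffic gene known from neurons, read 7.91, 7.60 and 7.58 against 6.57, 7.10 and 7.64 in control, and the groups overlapped. RAB2B, of the traffic between endoplasmic reticulum and Golgi, read 5.36, 5.11 and 5.57 against 6.64, 5.83 and 5.41, which also overlapped.

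The second comparison was silymarin minus control. Here 0 of 50 Rab genes passed, beside 0% of all genes, and 2 (4%) had an unadjusted p under 0.05, beside 5.24% of all genes. The median Rab difference was 0.00, against 0.02 over all genes, with 25 genes on each side of 0, beside 52.3% of all genes above it. The groups did not overlap for 7 Rab genes (14%), beside 10.8% of all genes. RAB5B lay at -0.02 (95% interval -0.47 to 0.42) and RAB21 at 0.24 (95% interval -0.13 to 0.62).

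RAB18, found on the endoplasmic reticulum and on lipid droplets, had the smallest p with silymarin and read 7.86, 5.62 and 4.36, against 3.92, 3.97 and 4.52 in control. The difference of 1.81 (SE 0.69, limma adjusted p 0.921) was 0.85 without silymarin replicate 1. A second, dimmer RAB18 probe read 3.83, 3.01 and 4.47 with silymarin, against 4.72, 4.90 and 3.84 in control. The probes of RAB18 therefore gave opposite signs.

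RAB40C, whose product carries a SOCS box that links it to a ubiquitin ligase, read 5.80, 6.0 and 6.25 with silymarin, against 6.34, 6.48 and 6.87 in control. The groups did not overlap, and the difference was -0.54 (SE 0.23, limma adjusted p 0.931). RAB4B, a gene of fast recycling from early endosomes, averaged 11.27 ± 0.30 with silymarin, against 10.79 ± 0.25 in control (SD, n = 3 arrays each), a difference of 0.48 (SE 0.22). RAB31, of traffic between the trans-Golgi and endosomes, lay 0.87 above control (SE 0.43), with overlapping arrays. RAB3D, of regulated secretion in exocrine cells, lay at -0.44 (SE 0.25) with arrays that did not overlap.

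With ursodeoxycholic acid, 0 of 50 Rab genes passed, beside 0% of all genes, and 4 (8%) had an unadjusted p under 0.05, beside 5.55% of all genes. RAB5B differed from control by -0.81 (SE 0.20, limma adjusted p 0.573) and RAB21 by -0.60 (SE 0.17, limma adjusted p 0.664). The RAB5C difference was -0.10 (95% interval -0.54 to 0.34). The median Rab difference was -0.03, against 0.02 over all genes, and 24 genes were above 0 and 26 below, beside 52.3% of all genes above 0. The groups did not overlap for 7 Rab genes (14%), beside 9.5% of all genes.

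RAB36, a Golgi-associated Rab, read 10.89, 11.69 and 11.66 with ursodeoxycholic acid, against 9.75, 10.63 and 10.97 in control. The groups overlapped, and the difference was 0.96 (SE 0.38, limma adjusted p 0.884). Its second probe differed by 0.20 (SE 0.25). RAB33A, a Golgi and vesicle Rab, read 5.37, 5.67 and 7.49 with ursodeoxycholic acid, against 7.44, 6.91 and 7.77 in control, so that 1 of 3 arrays lay inside the control range. RAB7A, which matures late endosomes and lysosomes, read 7.83, 7.89 and 8.37 against 6.99, 7.72 and 7.78, a difference of 0.53 (SE 0.26, limma adjusted p 0.895).

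**Figure D2:**
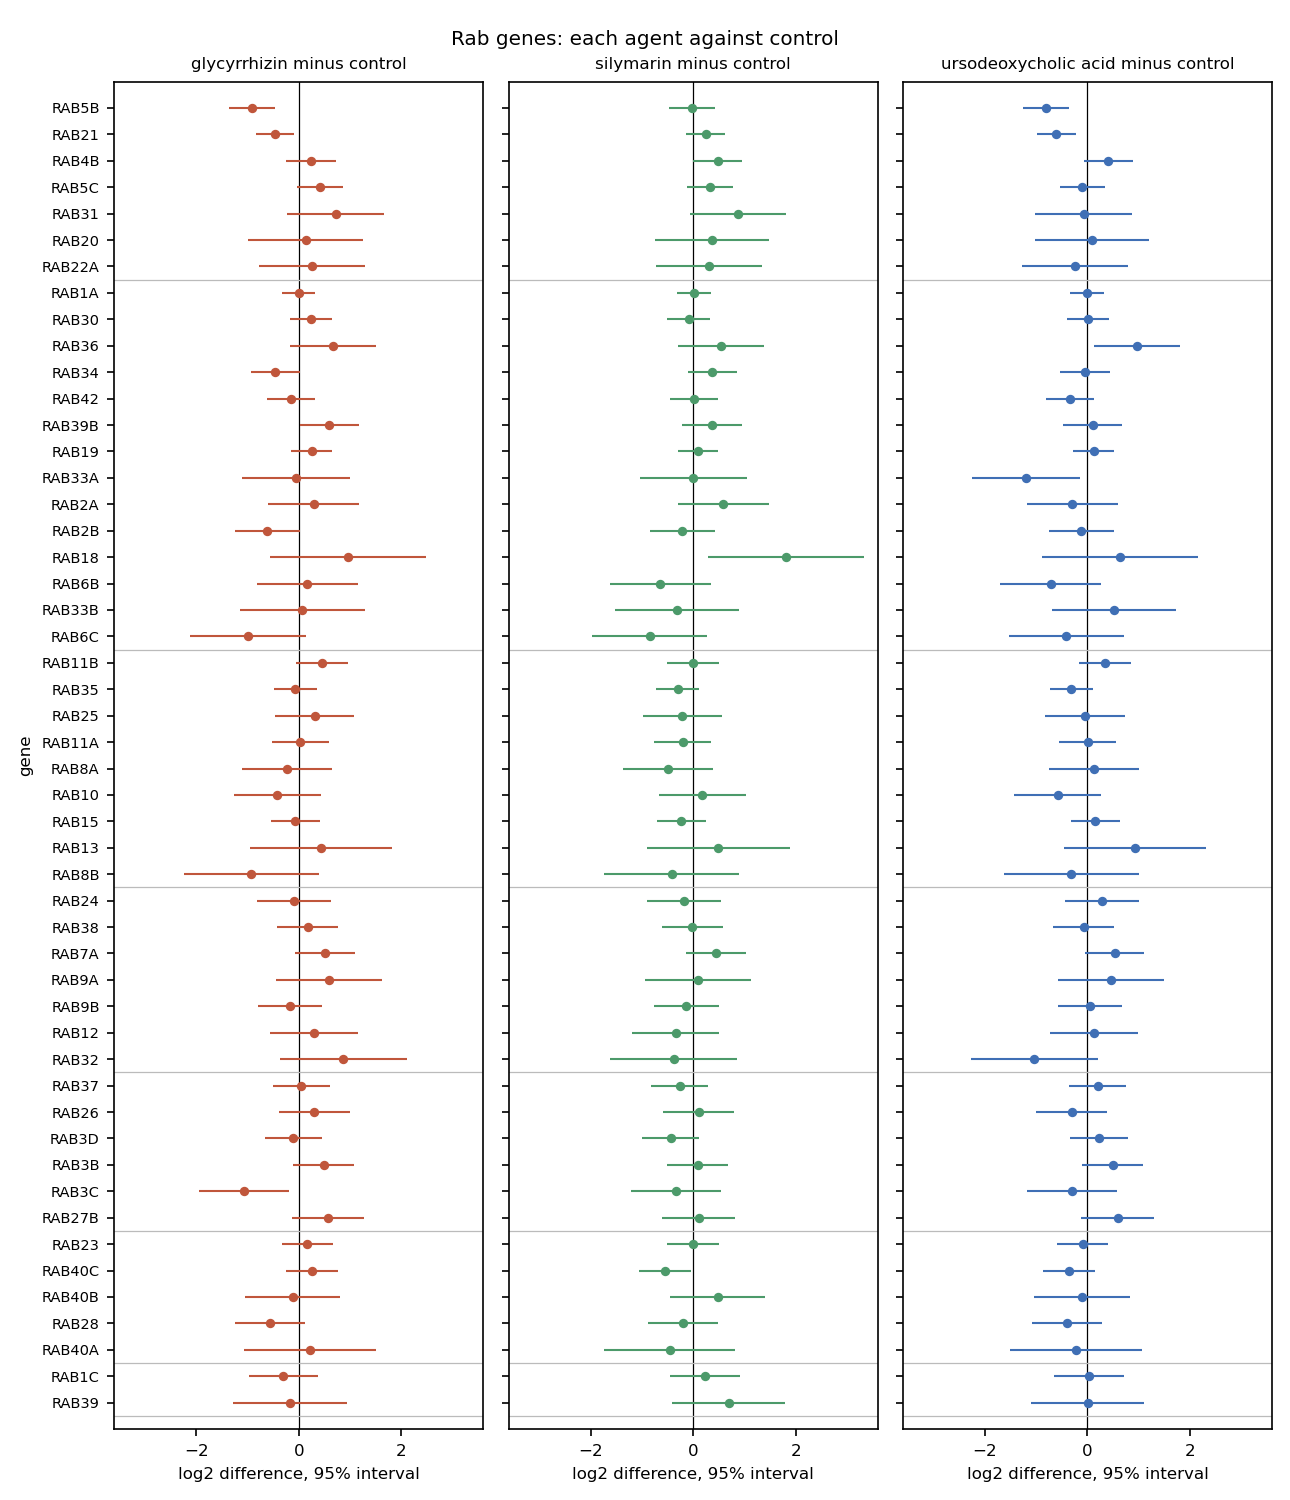
Log2 difference of every Rab gene from control, with 95% intervals from limma, for glycyrrhizin, silymarin and ursodeoxycholic acid, with genes in rows and grey lines between roles. RAB5B is at -0.91 with glycyrrhizin and -0.81 with ursodeoxycholic acid but at -0.02 with silymarin; no Rab gene passes an adjusted p of 0.05 in these 3 comparisons.

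The agents were also set against each other. In glycyrrhizin minus silymarin, 0 of 50 Rab genes passed, beside 0.0504% of all genes, and 5 (10%) had an unadjusted p under 0.05, beside 9.86% of all genes. The groups did not overlap for 9 Rab genes (18%), beside 18.2% of all genes. RAB5B differed by -0.88 (SE 0.20, limma adjusted p 0.163) and RAB21 by -0.70 (SE 0.17, limma adjusted p 0.171). RAB34, which acts at the Golgi and in ciliogenesis, read 9.58, 10.05 and 9.47 with glycyrrhizin and 10.44, 10.67 and 10.49 with silymarin. That difference was -0.83 (SE 0.22, limma adjusted p 0.201), and all 3 genes had arrays that did not overlap.

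RAB40C ran the other way, with 6.62, 6.95 and 6.91 on the glycyrrhizin arrays and 5.80, 6.0 and 6.25 on the silymarin arrays. Its difference was 0.80 (SE 0.23, limma adjusted p 0.242). RAB32, of melanosomes and other lysosome-related organelles, had the dimmest Rab probe and read 4.37, 4.01 and 5.24 with glycyrrhizin. It read 3.17, 3.40 and 3.30 with silymarin, a difference of 1.25 (SE 0.56). With the trend and robust moderation together, RAB5B, RAB21 and RAB34 passed in this pair, with limma adjusted p of 0.00924, 0.0109 and 0.0422, beside 1.56% of all genes. RAB5B and RAB21 also passed with the dimmer 50% of genes left out, beside 2.36% of the genes then tested, and with an offset of 50 added before the log, beside 0.929% of all genes.

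Glycyrrhizin minus ursodeoxycholic acid left RAB5B at -0.10 (95% interval -0.55 to 0.34) and RAB21 at 0.14 (95% interval -0.23 to 0.52). There 0 of 50 Rab genes passed, beside 0% of all genes, and 4 (8%) had an unadjusted p under 0.05, beside 5.09% of all genes. Groups were apart on all arrays for 7 Rab genes (14%), beside 11.6% of all genes. RAB32 read 4.37, 4.01 and 5.24 with glycyrrhizin and 2.64, 1.97 and 3.29 with ursodeoxycholic acid, a difference of 1.91 (SE 0.56, limma adjusted p 0.854). RAB5C (0.52, SE 0.20) and RAB40C (0.62, SE 0.23) also had arrays that did not overlap. RAB33A differed by 1.15 and RAB6B, a Golgi Rab known from neurons, by 0.88, both with overlapping arrays. The second RAB6B probe differed by -0.066 (SE 0.44).

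In silymarin minus ursodeoxycholic acid, 0 of 50 Rab genes passed, beside 0.0504% of all genes, and 5 (10%) had an unadjusted p under 0.05, beside 8.52% of all genes. Groups were apart on all arrays for 9 Rab genes (18%), beside 14.7% of all genes. RAB21 differed by 0.85 (SE 0.17, limma adjusted p 0.222), and with the trend and robust moderation together it passed with an adjusted p of 0.0135, beside 0.115% of all genes. RAB5B differed by 0.78 (SE 0.20, limma adjusted p 0.383). RAB3D read 6.93, 6.8 and 6.46 with silymarin and 7.59, 7.37 and 7.22 with ursodeoxycholic acid, which did not overlap. RAB31 read 7.39, 7.39 and 7.93 with silymarin and 6.19, 6.32 and 7.33 with ursodeoxycholic acid. RAB33A differed by 1.21 with an adjusted p of 0.545 in limma, and by 1.86 with an adjusted p of 0.0468 in limma without ursodeoxycholic acid replicate 3, beside 0.231% of all genes.

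The moderated F-test of limma over the 4 groups called 0 of 50 Rab genes, beside 0.0216% of all genes. RAB5B had the lowest F-test p of the Rab genes, with an adjusted p of 0.312 in limma, and RAB21 the next, with 0.336. With the trend and robust moderation together these 2 passed, beside 0.317% of all genes. At an unadjusted p under 0.05 there were 5 Rab genes (10%), RAB5B, RAB21, RAB40C, RAB34 and RAB32, beside 7.36% of all genes.

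Grouped by the membrane they serve, the 7 measured early endosome genes, RAB5B, RAB5C, RAB4B, RAB21, RAB22A, RAB31 and RAB20, included both genes of the split. In silymarin minus ursodeoxycholic acid all 7 had a positive difference, with a median of 0.56 against 0.00 over all genes. Of the 7, 0 passed the threshold. No comparison of any listed role gave a more uneven count, and this count includes RAB5B and RAB21, which were noticed in these values. The share of all genes above 0 is not given for this comparison. Whether such a count is uncommon among sets of genes was not tested. In glycyrrhizin minus control the median of the early endosome genes was 0.24. There 5 lay above 0, beside 52.5% of all genes, and 2 below, those being RAB5B and RAB21. In ursodeoxycholic acid minus control 2 were above 0, beside 52.3% of all genes, and 5 below, with a median of -0.10.

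The 14 genes of the endoplasmic reticulum and Golgi ran from 4.03 to 15.86 in mean level, and the medians of their differences lay between -0.04 and 0.16 over the 6 comparisons. RAB1A, which moves cargo from the endoplasmic reticulum to the Golgi, had the brightest Rab probe at 15.86 and read 15.81 to 15.91 over all 12 arrays. That is close to the highest deposited value, and its differences lay between -0.02 and 0.02 in the 6 comparisons. The other bright probes belonged to RAB5B and to RAB11B, a recycling endosome gene, which read 13.92, 13.33 and 13.62 with glycyrrhizin, 13.39, 12.96 and 13.14 with silymarin and 13.49, 13.49 and 13.57 with ursodeoxycholic acid. Its control arrays read 13.00, 12.93 and 13.57.

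The 9 recycling and plasma membrane genes gave 0 genes at an unadjusted p under 0.05 in all 6 comparisons, beside 5.09% to 9.86% of all genes. Their medians ran from -0.21 to 0.23. In silymarin minus control 7 of the 9 lay below 0, beside 52.3% of all genes above it, and in glycyrrhizin minus control 5 did. Of the 7 late endosome and lysosome genes, 6 were positive in glycyrrhizin minus silymarin, with a median of 0.19 against 0.01 over all genes. In glycyrrhizin minus ursodeoxycholic acid 4 were positive, with a median of 0.13 against -0.003 over all genes. Of the 6 genes of regulated secretion, 5 lay below 0 in silymarin minus ursodeoxycholic acid, with a median of -0.43 against 0.00 over all genes. In silymarin minus control 3 of them lay below 0, beside 52.3% of all genes above it. The 5 genes of the cilium and other roles, RAB23, RAB28, RAB40A, RAB40B and RAB40C, all lay below 0 in ursodeoxycholic acid minus control. Their median there was -0.22, and 52.3% of all genes lay above 0. In glycyrrhizin minus control 2 of the 5 lay below 0. None of these genes passed the threshold. For each role the more uneven count given is the largest, or ties with the largest, of its 6 comparisons.

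**Figure D3:**
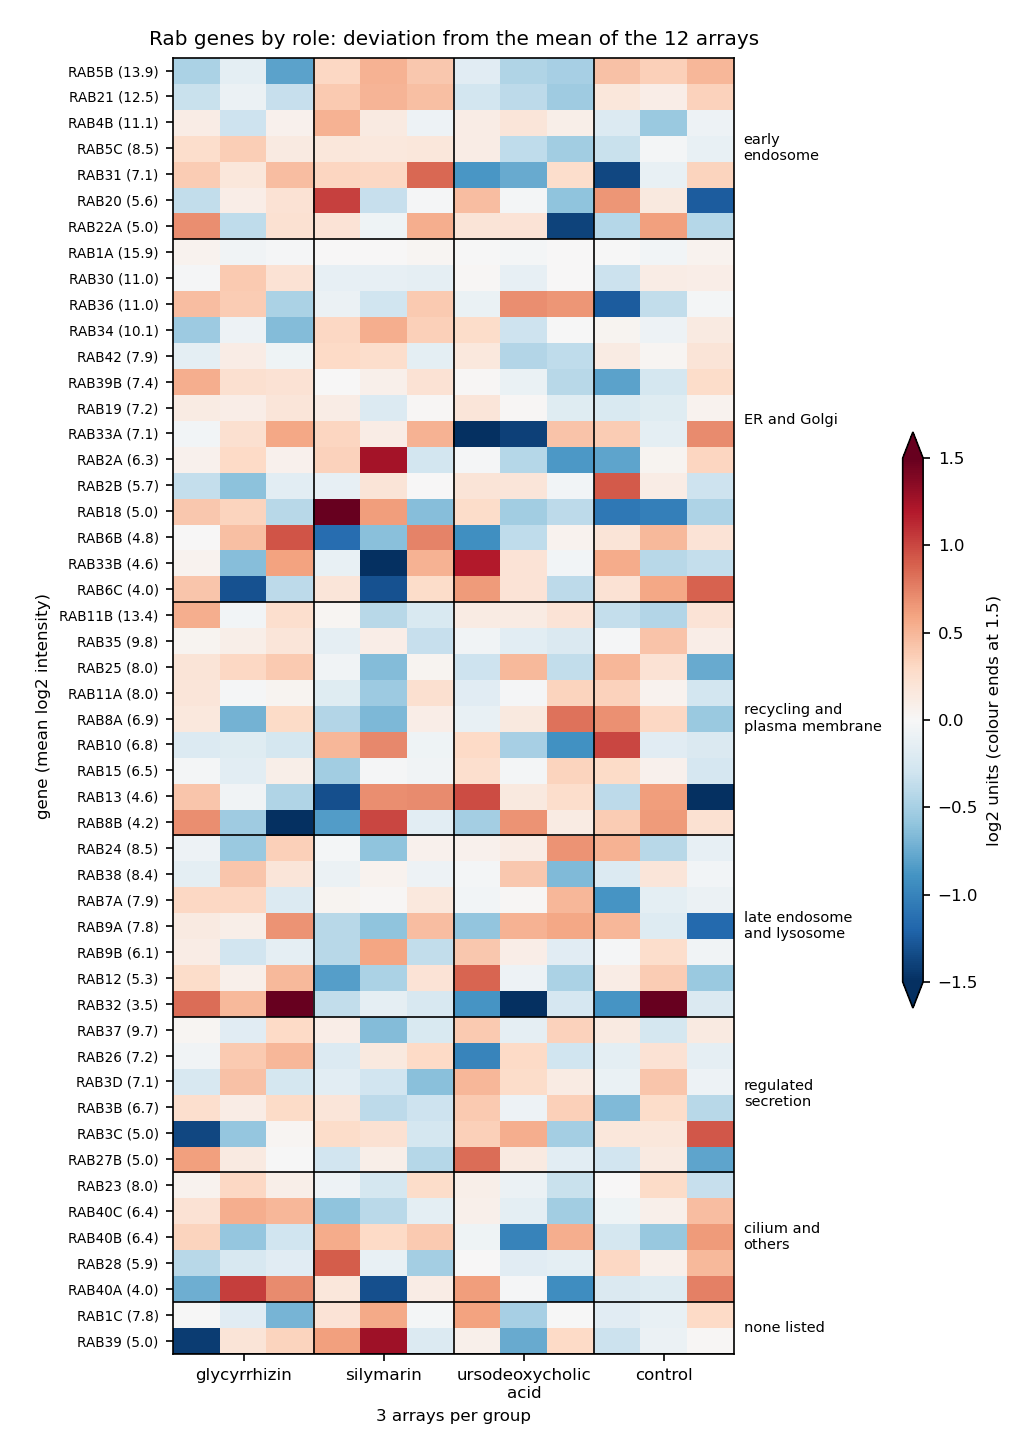
Deviation of each Rab gene from its mean over the 12 arrays, in log2 units (colour ends at 1.5), with genes in rows by role and arrays in columns by group. RAB5B and RAB21 share 1 pattern across the columns; many genes with a dim probe, such as RAB32 at a mean of 3.53, vary as much between arrays of a group.

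Paralogs were compared by their means over the 3 arrays of each group. RAB2A averaged 6.44 with glycyrrhizin, 6.74 with silymarin and 5.86 with ursodeoxycholic acid, against 6.16 in control, and RAB2B 5.35, 5.75 and 5.83 in the same order of agents, against 5.96 in control. RAB3B averaged 6.95, 6.56 and 6.96 against 6.47 in control, RAB3C 4.40, 5.13 and 5.17 against 5.47, and RAB3D 7.07, 6.73 and 7.39 against 7.17. RAB3C, the RAB3 gene with the lowest mean under glycyrrhizin relative to control, has the dimmest probe of the 3.

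RAB8A, of delivery to the plasma membrane, averaged 6.77 with glycyrrhizin, 6.52 with silymarin and 7.14 with ursodeoxycholic acid, against 7.01 in control, and RAB8B 3.65, 4.16 and 4.25 in that order, against 4.57. RAB9A, of return from late endosomes to the Golgi, averaged 8.14, 7.65 and 8.01 against 7.55 in control, and RAB9B 5.98, 6.02 and 6.19 against 6.15. RAB11A averaged 8.04, 7.80 and 8.01 against 8.01 in control, and RAB11B 13.62, 13.16 and 13.52 against 13.17. No gene of these pairs passed the threshold.

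RAB6B averaged 5.31 with glycyrrhizin, 4.50 with silymarin and 4.43 with ursodeoxycholic acid, against 5.15 in control, and RAB6C 3.6, 3.74 and 4.18 in that order, against 4.59. RAB33A averaged 7.32, 7.38 and 6.17 against 7.38 in control, and RAB33B 4.58, 4.19 and 5.03 against 4.51. RAB40A averaged 4.37, 3.69 and 3.93 against 4.15 in control, RAB40B 6.19, 6.79 and 6.20 against 6.31, and RAB40C 6.82, 6.02 and 6.21 against 6.56. The dimmest Rab probes, those of RAB32, RAB6C and RAB40A, lay at 3.53, 4.03 and 4.03.

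Of the 7 Rab genes with 2 probes, RAB18 gave opposite signs in glycyrrhizin minus control and RAB18 and RAB40B did so in silymarin minus control. In ursodeoxycholic acid minus control these were RAB24, a gene linked to autophagy, and RAB6B. In glycyrrhizin minus silymarin 0 of 7 disagreed, whereas 5 did so in glycyrrhizin minus ursodeoxycholic acid and 4 in silymarin minus ursodeoxycholic acid. The brighter RAB18 probe differed by 0.96 in glycyrrhizin minus control and the dimmer by -1.49. In glycyrrhizin minus ursodeoxycholic acid the brighter differed by 0.32 and the dimmer by -1.84. The probes of the RAB1C pseudogene gave the same sign in all 6 comparisons. RAB5B, RAB5C and RAB21 had 1 probe each, so their values had no second probe to set beside them.

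The spread between arrays depended on brightness. The residual SD had a median of 0.39 over Rab genes, against 0.43 over all genes. It was 0.29 for Rab genes above the median gene and 0.60 for those under it. RAB21 had a residual SD of 0.12 and RAB5B of 0.20, while RAB18 had the highest of the Rab genes, 0.96.

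**Figure D4:**
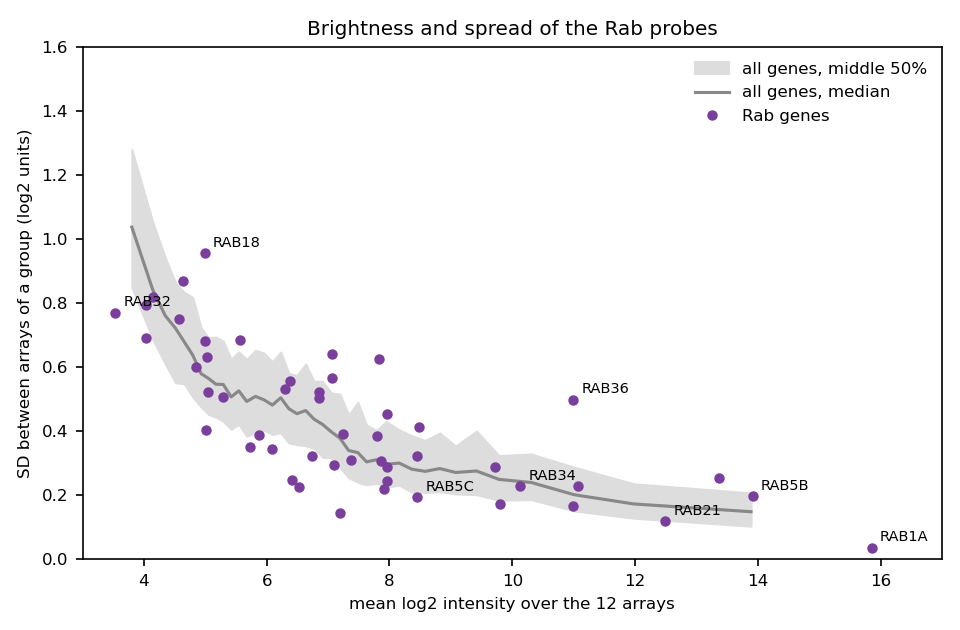
Residual SD between arrays of a group against mean log2 intensity, for the 50 Rab genes (points) and all genes (line for the median, grey band for the middle 50%). Rab genes under the median gene have a median SD of 0.60 and those above it 0.29. RAB5B (0.20) and RAB21 (0.12) are bright and lie under the median SD of all genes, 0.43. RAB5B lies above the median of 0.15 for genes near its brightness.

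The proteins that load, unload and read Rab GTPases were described from a list of 106 regulators, of which 85 were measured. In each of the 6 comparisons 0 of 85 passed the threshold in limma, beside 0% to 0.0504% of all genes. In glycyrrhizin minus control 5 of the 85 had an unadjusted p under 0.05, 3 higher and 2 lower, which is 5.88% beside 5.71% of all genes, and the median was 0.04, against 0.02 over all genes. MADD, an exchange factor for RAB3 proteins, read 11.72, 11.83 and 12.09 with glycyrrhizin, against 11.32, 11.49 and 10.99 in control (limma adjusted p 0.736). RIMS1, a RAB3 effector of the active zone, differed by -1.36 and RAB11FIP5, a RAB11 effector, by 0.89.

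In silymarin minus control, 3 regulators were higher and 2 lower at an unadjusted p under 0.05, or 5.88% beside 5.24% of all genes. RIN2, an exchange factor for RAB5 proteins, read 7.94, 7.79 and 7.38 with silymarin, against 7.31, 6.46 and 6.71 in control. Its difference was 0.88 (SE 0.25, limma adjusted p 0.836). TBC1D10B, a GTPase-activating protein, differed by -0.996 and EEA1, the early endosome tether that binds RAB5, by 0.65, both with overlapping arrays. In ursodeoxycholic acid minus control 2 were higher and 3 lower at that p, or 5.88% beside 5.55% of all genes. The smallest p belonged to DENND1B, an exchange factor for RAB35, at -1.18, to RIN2 at 0.60 and to RABGGTB, a subunit of the enzyme that prenylates Rab proteins, at -0.70. All 3 had adjusted p of 0.753 or more in limma. Between agents, at an unadjusted p under 0.05, 7 regulators were higher and 7 lower in glycyrrhizin minus silymarin, or 16.5% beside 9.86% of all genes. In glycyrrhizin minus ursodeoxycholic acid 4 were higher and 1 lower, or 5.88% beside 5.09% of all genes. In silymarin minus ursodeoxycholic acid 6 were higher and 5 lower, or 12.9% beside 8.52% of all genes.

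The correlation of each array with the others, as a median over all genes, was lowest for ursodeoxycholic acid replicate 1 at 0.923 and silymarin replicate 2 at 0.925. Those arrays also had the lowest weights when arrays were weighted, 0.555 and 0.584. Without any 1 array, the RAB5B difference stayed between -1.07 and -0.75 for glycyrrhizin minus control and between -0.91 and -0.74 for ursodeoxycholic acid minus control. For RAB21 the ranges were -0.54 to -0.39 and -0.67 to -0.54.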

How the data were processed

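Total RNA of 12 samples was labelled with Cy5. The authors deposited 1 linear intensity per probe and array, already on a common distribution (at a given rank, a median spread of 1.22% over the arrays); limma is named per the submitters' processing notes, with neither version nor steps. Of 27561 probes, 15650 had 1 symbol and 11911 had none and were left out; 2355 probes had older symbols updated and 68 ambiguous ones were kept. RAB7L1, now RAB29, does not match the rule and was left out.

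Intensities were taken to log2, and the brightest probe per gene was fitted with limma 3.58.1 (R 4.3.3; lmFit, eBayes), with 1 mean per group, 8 residual and 2.71 prior degrees of freedom. Tests were two-sided, adjusted by Benjamini-Hochberg over 13881 genes, at a threshold of 0.05. The fit was tested on simulated data. The p-values are those of this fit. A fit whose spread was moderated over all 27561 probes was used for a time as the main setting, after the counts of both had been seen; it is given as an alternative, and the fit as designed was restored. Members and lists were chosen with earlier results of these data known. Named genes were the 5 Rab genes of smallest p per comparison, the RAB5 paralogs, lettered paralogs, genes with disagreeing probes, the 3 brightest and 3 dimmest, genes called under an alternative, and the 3 regulators of smallest p against control. Motif shares use windows of protein-coding genes, a background chosen after shares over all windows were seen. Alternatives were a replicate block, renormalization, a filter on dim genes, other probe rules, a variance trend with robust moderation, array weights, fewer groups, offsets of 16 and 50, and leaving out each array.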

Additional observations from a re-analysis of the deposited data

How the results depend on the processing

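Of 167 counts of Rab genes recomputed under up to 24 alternatives, 160 were 0, like the original counts. The variance trend with robust moderation, set together, gave 1 in glycyrrhizin minus control (RAB5B), beside 17 of all genes. In glycyrrhizin minus silymarin it gave 3 (RAB21, RAB34 and RAB5B), beside 217 of all genes. It gave 1 in silymarin minus ursodeoxycholic acid (RAB21), beside 16, and 2 in the test over the 4 groups (RAB21 and RAB5B), beside 44. In glycyrrhizin minus silymarin, leaving out the dimmer 50% of genes and an offset of 50 each gave 2 (RAB21 and RAB5B), beside 164 and 129 of all genes tested, against 7 in the original fit. Leaving out each array in turn gave 0 to 1 Rab genes in silymarin minus ursodeoxycholic acid, the 1 being RAB33A without ursodeoxycholic acid replicate 3, where 32 of all genes passed against 7 with it, and 0 in the other tests. The adjusted p of RAB5B in glycyrrhizin minus control ran from 0.0157 to 0.987 over the alternatives. Why the calls moved was not tested. With dim genes left out, fewer genes were tested and the SE in glycyrrhizin minus silymarin was also smaller. It was 0.18 against 0.20 for RAB5B, and 0.14 against 0.17 for RAB21. With the variance trend and robust moderation together, the differences of these genes in that pair were unchanged. Their SE there was 0.14 for RAB5B and 0.12 for RAB21.

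Of 879 differences of named genes recomputed, 863 kept their sign and call, 10 newly passed the threshold and 6 turned sign. With the dimmest probe, RAB18 was at -0.72 in silymarin minus control and RAB6B at -0.066 in glycyrrhizin minus ursodeoxycholic acid. Without 1 array, RAB5B ran from -0.081 to 0.028 in silymarin minus control and from -0.27 to 0.059 in glycyrrhizin minus ursodeoxycholic acid, and RAB5C from -0.29 to 0.026 in ursodeoxycholic acid minus control. The cause was not tested.

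With the replicate number as a block, 0 Rab genes passed in all 7 tests, with lowest adjusted p of 0.269 to 0.891 in limma, and 0 of all genes passed. Deviations of same-numbered arrays of different groups correlated with r of -0.19 to 0.15 over genes in 18 pairs. Arrays of different numbers gave -0.23 to 0.27 in 36 pairs. These values show no shared deviation by number, and cannot settle whether the samples were paired. The fit moderated over all probes, chosen after seeing the data, also called 0 Rab genes in all 7 tests. It called 4 of all genes in silymarin minus ursodeoxycholic acid, against 7, and 0 in glycyrrhizin minus control, against 1.

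Precision was lower for dim probes: the median residual SD was 0.60 for Rab genes under the median gene, and 0.57 for all genes under it.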
